A study of Mus musculus with 45 samples.

Results

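Axin2, Lef1, Tcf7, Tcf7l1, Sp5, Dkk1, Nkd1, Ccnd1 and Lgr5 are 9 genes grouped here as Wnt pathway targets, and their RNA levels were followed in mouse embryonic stem cells (ESCs). The genes were taken by symbol from 2 expression tables, and 9 of the 33924 genes in each table carried these names. Each of the 9 varied between samples, so all entered the tests over the 22048 varying genes of the first table and the 21979 of the other. The study asked what the long noncoding RNA locus 5430416N02Rik does in D3 ESCs, a line grown here without feeder cells in serum and leukemia inhibitory factor. In ΔG cells a GFP-IRES-Puro cassette replaced the gene body of the locus, and in ΔPG cells a PGK-puro cassette replaced the promoter and the gene body. RNA was sequenced in 24 samples that form 8 groups of 3 biological replicates, with 12 samples in a ΔG table and 12 in a ΔPG table. For ΔG and ΔPG alike, heterozygous and homozygous cells received either DMSO (ES samples) or 2 µM retinoic acid (RA samples) for 48 h, a dose and time that the sample labels do not give. Every group carried a cassette, with a single altered allele in the heterozygous cells that served as controls, so no group was free of targeting. Independent clones of each genotype were made, which clone gave which sample was not stated, and the effects of clone and genotype therefore cannot be told apart.

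Wnt ligands bind Frizzled and LRP receptors at the cell surface, which stops a cytoplasmic complex of Axin, APC and GSK3 from marking β-catenin for destruction. β-Catenin then enters the nucleus and, with TCF/LEF proteins, switches on target genes, many of which encode proteins that damp or sharpen the same signal. In ESCs this pathway is known for supporting self-renewal, and TCF7L1 is known there as a repressor of the same targets.

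Levels were read as rlog values, which are normalized read counts on a log2 scale with low counts pulled toward the mean of the gene, so that differences of low genes are understated. Whether this transformation made use of the sample groups was not stated, so how far it shrank group differences is not known. The sequencing depth of the samples was not known. Each table had been normalized on its own, so tests were made within a table, and levels of different targets were not compared because the values are not per length. Summed marker levels, and the marker called most abundant in a list (the highest rlog value), are likewise not per length and serve as a check of cell state alone. A gene was called changed when the adjusted p of limma (Benjamini-Hochberg, over all varying genes) was under 0.1 and the log2 difference exceeded 0.5 in size. A permutation test of 3 samples against 3 cannot give an exact p below 0.1, so no such test was run for single genes. In these bulk samples a lower level can come from fewer cells of a type or from less RNA per cell, and the tables cannot tell these apart.

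The targeted RNA was checked first. In the ΔG table, 5430416N02Rik (ENSMUSG00000084877.1, chr5:100849861-100858535, minus strand, NCBIM37) had rlog values of 5.58, 5.54 and 5.50 in heterozygous ES, 2.63, 2.77 and 2.85 in homozygous ES, 5.64, 5.52 and 5.58 in heterozygous RA and 2.63, 3.08 and 2.77 in homozygous RA samples. In the ΔPG table the values were 4.62, 4.58 and 4.59 in heterozygous ES, 2.23, 2.21 and 2.46 in homozygous ES, 4.24, 3.80 and 4.44 in heterozygous RA and 2.66, 2.12 and 2.28 in homozygous RA samples. In both tables all homozygous samples lay far below all heterozygous samples, with and without retinoic acid, as the genotype labels say. The homozygous minus heterozygous difference was -2.79 (SE 0.093, adjusted p = 3.6e-05) in ES and -2.75 (SE 0.14, adjusted p = 2.8e-11) in RA samples for ΔG, and -2.30 (SE 0.12, adjusted p = 6.0e-06) and -1.81 (SE 0.21, adjusted p = 0.00103) for ΔPG.

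Markers were then set against the labelled cell state. All 8 of 8 ESC markers (Pou5f1, Nanog, Sox2, Zfp42, Esrrb, Klf4, Tdgf1 and Dppa5a) fell with retinoic acid in each of the 4 comparisons, with median log2 differences of -3.68 and -3.85 in heterozygous and homozygous ΔG cells and -3.67 and -3.40 in heterozygous and homozygous ΔPG cells. Their summed level, as 2 to the power of rlog, was 18050 to 18660 in ΔG ES samples and 1585 to 1647 in ΔG RA samples, with Dppa5a the most abundant. The sum was 17450 to 17930 in heterozygous and 15370 to 15530 in homozygous ΔPG ES samples, against 1613 to 1704 in ΔPG RA samples. All 5 of 5 retinoic acid response genes (Cyp26a1, Rarb, Hoxb1, Dhrs3 and Stra8) rose in each comparison, from sums of 261.6 to 311.1 up to 2229 to 2336 in ΔG and from 285.3 to 353.2 up to 1713 to 1827 in ΔPG. The ES samples thus carried ESC markers at a high level, and every RA sample showed the response.

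Markers of other cell types also moved with retinoic acid. All 5 of 5 endoderm markers rose in each comparison, with Gata6 the most abundant, from sums of 36.64 to 43.97 up to 317.4 to 378.4 in ΔG and from 35.79 to 46.66 up to 226.1 to 340.6 in ΔPG. Of 5 trophectoderm markers, 3 (Gata3, Krt7 and Krt8) rose in each comparison, with Krt8 the most abundant and sums of 146.8 to 185 in ΔG ES against 1939 to 2539 in ΔG RA samples, and of 218.7 to 309.8 against 1954 to 2516 in ΔPG. Of 4 neural markers tested, Pax6 and Nes rose in each comparison, with Nes the most abundant and sums of 156.4 to 210.1 against 579.3 to 688.3 in ΔG and of 206 to 358.3 against 679.9 to 746 in ΔPG. Of 5 fibroblast markers, 4, 3, 4 and 4 rose in the heterozygous ΔG, homozygous ΔG, heterozygous ΔPG and homozygous ΔPG comparisons, Thy1 fell in both ΔPG comparisons, and sums moved from 29.87 to 39.13 up to 370.9 to 763.2 in ΔG and from 40.51 to 49.71 up to 482.4 to 563.5 in ΔPG, with Col1a2 the most abundant. Of the primitive streak markers, T fell in all 4 comparisons and Eomes, the most abundant, in 3 of them, and Mesp1 was at 0 in every ΔG sample. Sums of the streak list were 33.15 to 46 in ES and 25.33 to 32.88 in RA samples of ΔG, and 44.65 to 56.8 against 27.23 to 30.41 in ΔPG. The part of these cell types in the retinoic acid differences of the Wnt targets was not tested.

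A single library stood apart from its group. Replicate 1 of the homozygous ΔPG RA samples differed from the other samples of its group by 0.244 rlog units (root mean square over 11904 genes), where all other samples lay between 0.155 and 0.21. No columns were identical. Target differences that moved by over 1.5 times or turned sign without this library are given with and without it.

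The first question was how the targets moved when ESCs were treated with retinoic acid. In heterozygous ΔG cells 3 of the 9 were called higher, against 17.7% of all tested genes, and 3 were called lower, against 11.7%. In homozygous ΔG cells 4 were higher (17% of all genes) and 3 lower (12.1%). Heterozygous ΔPG cells had 3 higher (18%) and 3 lower (13.6%), and homozygous ΔPG cells had 3 higher (16.5%) and 3 lower (11.3%). These shares include low genes, which were called less often. With both directions together, 29.5%, 29.2%, 31.6% and 27.8% of all tested genes were called in these comparisons, in the order given. Among genes with a mean rlog of at least 3, where all targets but Lef1 and Lgr5 lie, 45.5%, 46.4%, 49.5% and 42.6% were called. Axin2, Sp5 and Ccnd1 fell in all 4 comparisons, and Dkk1, Nkd1 and Lgr5 rose in all 4. Tcf7l1 rose in 1 of the 4 and Lef1 and Tcf7 were called in none. The targets therefore did not move as a block, and the median difference of the 9 was 0.10, 0.23, 0.15 and -0.15 in the order heterozygous ΔG, homozygous ΔG, heterozygous ΔPG and homozygous ΔPG, against 0.043, 0.016, 0.0074 and 0.0052 over all tested genes. The 4 comparisons share no samples. Across all genes the split of calls depended on scaling, since quantile normalization gave 3042 higher and 3304 lower genes in heterozygous ΔG cells in place of 3911 and 2588, 2941 and 3305 in homozygous ΔG cells in place of 3759 and 2675, and 2864 and 2960 in homozygous ΔPG cells in place of 3634 and 2482. In heterozygous ΔPG cells it gave 3321 higher and 3503 lower genes in place of 3960 and 2987. For the 9 targets, quantile normalization left 2 higher in each comparison, with 3, 3, 3 and 4 lower, and median scaling left 3, 2, 3 and 2 higher with 3 lower in each. With the GC trend removed, where Lef1 and Lgr5 had no value, 2, 2, 2 and 1 of 7 were higher and 3 lower in each. None of the called targets changed sign under quantile normalization, median scaling or removal of the GC trend in these 4 comparisons.

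**Figure D1:**
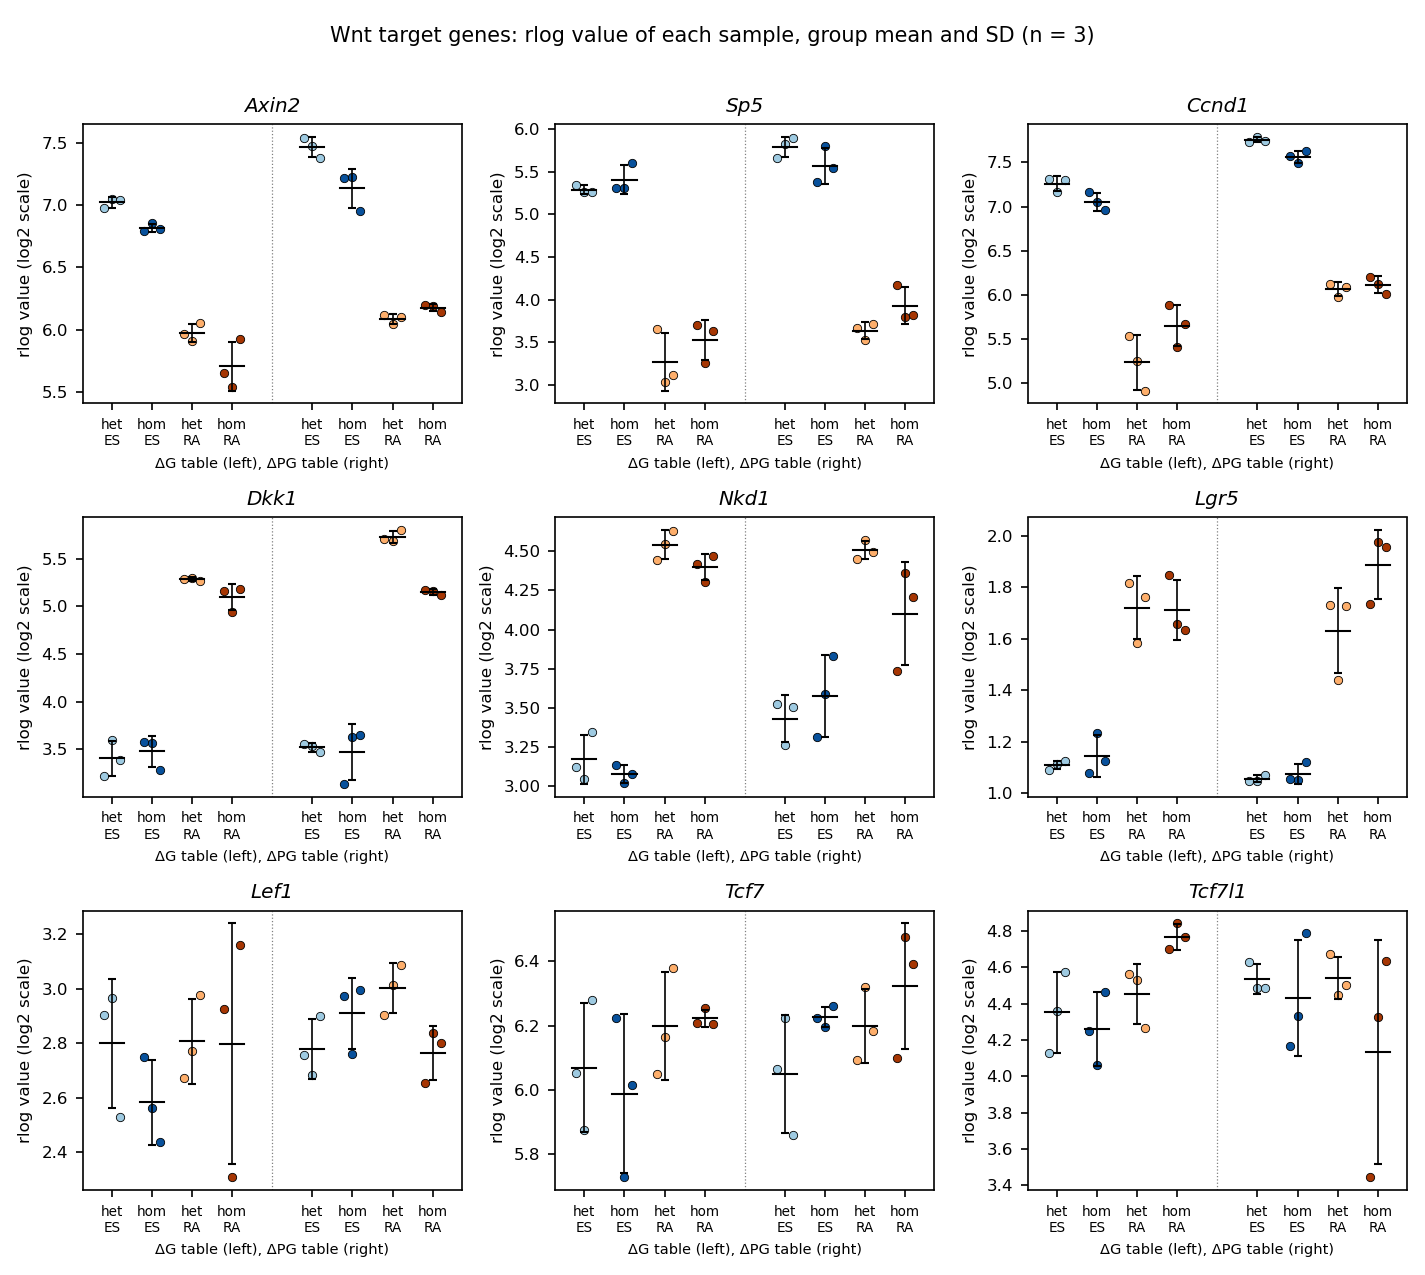
Each panel plots the rlog value (log2 scale) of 1 gene in all 24 samples, with ΔG groups on the left and ΔPG groups on the right. Dots are samples, bars are group means and whiskers are SD (n = 3), and in heterozygous ΔG cells Axin2 goes from 7.02 ± 0.042 in ES to 5.97 ± 0.075 in RA samples.

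Lgr5 encodes a receptor for R-spondins, secreted proteins that strengthen Wnt signals. Its rlog values in ΔG cells were 1.09, 1.11 and 1.12 in heterozygous ES, 1.08, 1.24 and 1.12 in homozygous ES, 1.82, 1.58 and 1.76 in heterozygous RA and 1.85, 1.66 and 1.63 in homozygous RA samples. In ΔPG cells they were 1.05, 1.05 and 1.07 in heterozygous ES, 1.06, 1.05 and 1.12 in homozygous ES, 1.73, 1.44 and 1.73 in heterozygous RA and 1.73, 1.97 and 1.96 in homozygous RA samples. Every RA sample lay above every ES sample of its table, while the genotypes overlapped in ES samples of both tables. Lgr5 (chr10:114887367-115024836, minus strand, NCBIM37) rose by 0.61 (SE 0.12, adjusted p = 7.5e-04) and 0.57 (SE 0.13, adjusted p = 0.00113) in heterozygous and homozygous ΔG cells. In ΔPG cells the rise was 0.58 (SE 0.11, adjusted p = 0.00346) in heterozygous and 0.81 (SE 0.13, adjusted p = 3.4e-04) in homozygous cells. By mean ± SD (n = 3) the ΔG groups ranked heterozygous RA (1.72 ± 0.12), homozygous RA (1.71 ± 0.12), homozygous ES (1.15 ± 0.081) and heterozygous ES (1.11 ± 0.017), and the ΔPG groups homozygous RA (1.89 ± 0.13), heterozygous RA (1.63 ± 0.17), homozygous ES (1.08 ± 0.04) and heterozygous ES (1.06 ± 0.014). With mean levels this low the differences sat close to the limit of a call, and quantile normalization put them at 0.44, 0.41 and 0.43 in heterozygous ΔG, homozygous ΔG and heterozygous ΔPG cells, under the limit in each. The homozygous ΔG call was also lost with median scaling (0.48) and without replicate 1 of the homozygous ΔG RA samples (0.498), and it was lost with the heterozygous ΔPG call at an adjusted p under 0.05 with a fold change over 1.5.

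Dkk1 encodes a secreted protein that binds LRP5/6 and blocks Wnt reception, and it is itself induced by Wnt signals. In ΔG cells its rlog values were 3.22, 3.60 and 3.39 in heterozygous ES, 3.58, 3.56 and 3.29 in homozygous ES, 5.29, 5.30 and 5.27 in heterozygous RA and 5.16, 4.94 and 5.18 in homozygous RA samples. In ΔPG cells they were 3.55, 3.54 and 3.47 in heterozygous ES, 3.14, 3.63 and 3.65 in homozygous ES, 5.71, 5.69 and 5.80 in heterozygous RA and 5.17, 5.17 and 5.12 in homozygous RA samples. The ES and RA samples were separated by more than 1 rlog unit in every line. In both tables the 3 homozygous RA samples lay below the 3 heterozygous RA samples. Dkk1 (chr19:30620353-30624155, minus strand, NCBIM37) rose by 1.88 (SE 0.12, adjusted p = 2.3e-08) in heterozygous and 1.62 (SE 0.14, adjusted p = 1.2e-08) in homozygous ΔG cells, ratios of 3.69 and 3.07 on the linear scale. The rise in ΔPG cells was 2.21 (SE 0.084, adjusted p = 5.0e-07) in heterozygous and 1.68 (SE 0.16, adjusted p = 4.6e-06) in homozygous cells, ratios of 4.63 and 3.20. In mean ± SD (n = 3) the ΔG groups ran in the order heterozygous RA (5.29 ± 0.018), homozygous RA (5.10 ± 0.13), homozygous ES (3.48 ± 0.16) and heterozygous ES (3.40 ± 0.19), and neighbours within a treatment did not pass the test. The ΔPG order was heterozygous RA (5.73 ± 0.061), homozygous RA (5.15 ± 0.029), heterozygous ES (3.52 ± 0.045) and homozygous ES (3.47 ± 0.29), in which the pair of RA groups passed the test given under genotype and the ES pair did not.

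Axin2 encodes a scaffold of the β-catenin destruction complex and acts as a negative feedback component that Wnt signals induce in most tissues. Its rlog values in ΔG cells were 6.97, 7.05 and 7.04 in heterozygous ES, 6.79, 6.85 and 6.80 in homozygous ES, 5.96, 5.91 and 6.05 in heterozygous RA and 5.65, 5.54 and 5.92 in homozygous RA samples. In ΔPG cells they read 7.54, 7.48 and 7.38 in heterozygous ES, 7.22, 7.23 and 6.95 in homozygous ES, 6.11, 6.04 and 6.10 in heterozygous RA and 6.20, 6.19 and 6.14 in homozygous RA samples. All RA samples lay below all ES samples of their table, and in ES samples of both tables the homozygous values lay below the heterozygous values without overlap. Axin2 (chr11:108781663-108812097, plus strand, NCBIM37) fell with retinoic acid, with differences of -1.05 (SE 0.082, adjusted p = 1.3e-07) in heterozygous and -1.11 (SE 0.11, adjusted p = 8.0e-08) in homozygous ΔG cells. In ΔPG cells the differences were -1.38 (SE 0.055, adjusted p = 6.5e-07) and -0.96 (SE 0.088, adjusted p = 3.4e-06), so that RA levels were 0.384 and 0.515 of the ES levels on the linear scale. The ΔG means ± SD (n = 3) ranked heterozygous ES (7.02 ± 0.042), homozygous ES (6.82 ± 0.034), heterozygous RA (5.97 ± 0.075) and homozygous RA (5.71 ± 0.20), and those of ΔPG heterozygous ES (7.47 ± 0.08), homozygous ES (7.13 ± 0.16), homozygous RA (6.18 ± 0.028) and heterozygous RA (6.09 ± 0.039).

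Nkd1 encodes a cytoplasmic protein that binds Dishevelled and restrains the signal. Its values were 3.12, 3.04 and 3.35 in heterozygous ES, 3.14, 3.02 and 3.08 in homozygous ES, 4.45, 4.55 and 4.63 in heterozygous RA and 4.42, 4.31 and 4.47 in homozygous RA samples in ΔG cells. In ΔPG cells they were 3.53, 3.26 and 3.51 in heterozygous ES, 3.31, 3.59 and 3.83 in homozygous ES, 4.45, 4.57 and 4.50 in heterozygous RA and 3.73, 4.36 and 4.21 in homozygous RA samples. The RA samples lay above the ES samples in 3 of the 4 comparisons, and in homozygous ΔPG cells RA replicate 1 fell within the range of the ES samples. Nkd1 (chr8:91045243-91118786, plus strand, NCBIM37) rose by 1.37 (SE 0.13, adjusted p = 7.7e-07) in heterozygous ΔG, 1.32 (SE 0.13, adjusted p = 1.2e-07) in homozygous ΔG and 1.07 (SE 0.11, adjusted p = 1.3e-04) in heterozygous ΔPG cells. In homozygous ΔPG cells the rise was 0.525 (SE 0.20, adjusted p = 0.0503), just past the limits of a call. Without RA replicate 1, the library that stood apart, it was 0.71, and the call was lost without ES replicate 1 (0.39), RA replicate 2 (0.39) or RA replicate 3 (0.47). It was also lost with quantile normalization (0.098), median scaling (0.48), removal of the GC trend (0.45), stricter limits or no variance trend, with limma adjusted p between 0.00963 and 0.775 over all alternatives. By mean ± SD (n = 3) the ΔG order was heterozygous RA (4.54 ± 0.093), homozygous RA (4.40 ± 0.083), heterozygous ES (3.17 ± 0.16) and homozygous ES (3.08 ± 0.059), and the ΔPG order heterozygous RA (4.51 ± 0.06), homozygous RA (4.10 ± 0.33), homozygous ES (3.58 ± 0.26) and heterozygous ES (3.43 ± 0.15).

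Sp5 encodes a zinc finger transcription factor that Wnt/β-catenin signals induce directly and that acts back on other targets. The rlog values in ΔG cells were 5.35, 5.26 and 5.27 in heterozygous ES, 5.31, 5.32 and 5.60 in homozygous ES, 3.66, 3.04 and 3.12 in heterozygous RA and 3.70, 3.27 and 3.64 in homozygous RA samples. Values in ΔPG cells were 5.66, 5.82 and 5.89 in heterozygous ES, 5.38, 5.80 and 5.54 in homozygous ES, 3.67, 3.53 and 3.72 in heterozygous RA and 4.18, 3.79 and 3.82 in homozygous RA samples. Every RA sample lay more than 1 rlog unit below every ES sample of its table, and the genotypes overlapped in ES and in RA samples of ΔG and in ES samples of ΔPG. Sp5 (chr2:70312980-70315786, plus strand, NCBIM37) fell to 0.246 and 0.273 of its linear ES level in heterozygous and homozygous ΔG cells, log2 differences of -2.02 (SE 0.15, adjusted p = 1.0e-07) and -1.87 (SE 0.14, adjusted p = 4.0e-09). It fell to 0.225 and 0.320 in ΔPG cells, log2 differences of -2.15 (SE 0.10, adjusted p = 1.4e-06) and -1.64 (SE 0.15, adjusted p = 4.0e-06). In ΔG the groups ranked homozygous ES (5.41 ± 0.17), heterozygous ES (5.29 ± 0.048), homozygous RA (3.53 ± 0.23) and heterozygous RA (3.27 ± 0.34) by mean ± SD (n = 3), and in ΔPG heterozygous ES (5.79 ± 0.12), homozygous ES (5.57 ± 0.21), homozygous RA (3.93 ± 0.22) and heterozygous RA (3.64 ± 0.10), and no pair of neighbours within a treatment passed the test.

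Tcf7, Lef1 and Tcf7l1 encode DNA-binding partners of β-catenin. Tcf7 (chr11:52065873-52096681, minus strand, NCBIM37) had group means from 5.99 ± 0.25 to 6.22 ± 0.027 (SD, n = 3) in ΔG and from 6.05 ± 0.18 to 6.32 ± 0.20 in ΔPG cells, and ES and RA samples overlapped in all 4 comparisons. Its retinoic acid difference lay between 0.095 and 0.23, with the widest 95% interval reaching from -0.13 to 0.38 in heterozygous ΔG cells, and the smallest, that of homozygous ΔPG cells, was 0.21 (adjusted p = 0.0480) without the library that stood apart. With the GC trend removed it was 0.041, 0.13 and 0.021 in heterozygous ΔG, homozygous ΔG and homozygous ΔPG cells. In heterozygous ΔPG cells it was then 0.33 (limma adjusted p = 0.0030), past the limit on p but not on size. Lef1 (chr3:130813389-130927274, plus strand, NCBIM37) had group means of 2.58 ± 0.16 to 2.81 ± 0.16 in ΔG and 2.76 ± 0.098 to 3.00 ± 0.091 in ΔPG cells. In heterozygous ΔPG cells the Lef1 values were 2.76, 2.68 and 2.90 in ES and 2.90, 3.01 and 3.09 in RA samples, which did not overlap but gave a difference of 0.22 (SE 0.12, adjusted p = 0.182). In the other 3 comparisons the ES and RA samples overlapped, with Lef1 differences of 0.0072 (SE 0.15, adjusted p = 0.968), 0.22 (SE 0.19, adjusted p = 0.369) and -0.15 (SE 0.16, adjusted p = 0.519) in heterozygous ΔG, homozygous ΔG and homozygous ΔPG cells. The last of these was -0.09 without the library that stood apart and became -0.55 with quantile normalization (limma adjusted p = 0.0144, the smallest over its alternatives, whose largest is 0.721). Quantile normalization turned the sign of the other Lef1 differences. They became -0.30 in heterozygous ΔG, -0.060 in homozygous ΔG and -0.14 in heterozygous ΔPG cells, none of them called.

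Tcf7l1 (chr6:72576372-72739248, minus strand, NCBIM37) had rlog values of 4.13, 4.36 and 4.57 in heterozygous ES, 4.25, 4.06 and 4.47 in homozygous ES, 4.57, 4.53 and 4.27 in heterozygous RA and 4.70, 4.84 and 4.77 in homozygous RA samples in ΔG cells. The values in ΔPG cells were 4.63, 4.49 and 4.49 in heterozygous ES, 4.17, 4.33 and 4.79 in homozygous ES, 4.67, 4.45 and 4.51 in heterozygous RA and 3.44, 4.32 and 4.64 in homozygous RA samples. In homozygous ΔG cells all RA samples lay above all ES samples, in the other comparisons they overlapped, and the lowest value of all was in RA replicate 1 of homozygous ΔPG cells, the library that stood apart. Tcf7l1 rose in homozygous ΔG cells by 0.51 (SE 0.13, adjusted p = 0.00385). The differences were 0.10 (SE 0.14, adjusted p = 0.583) in heterozygous ΔG, 0.0069 (SE 0.10, adjusted p = 0.960) in heterozygous ΔPG and -0.29 (SE 0.27, adjusted p = 0.443) in homozygous ΔPG cells. The single call was at the limit: it was lost with quantile normalization (0.10), median scaling (0.42), removal of the GC trend (0.29) and stricter limits, and without replicate 2 of the homozygous ΔG ES samples (0.41) or of the RA samples (0.47). Without the library that stood apart the homozygous ΔPG difference was 0.051. Quantile normalization put the heterozygous differences at -0.31 in ΔG and -0.33 (limma adjusted p = 0.0267) in ΔPG cells. With the GC trend removed they were -0.087 and 0.27 (adjusted p = 0.0486), so the ΔPG value took both signs. In homozygous ΔPG cells these settings gave -0.67 and -0.47. None of these values was called. The test of whether the response differed between the ΔG genotypes gave 0.41 (SE 0.19, adjusted p = 0.321).

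Ccnd1 encodes cyclin D1, which drives entry into S phase with CDK4/6 and is a target of Wnt as well as of mitogen signals. Its rlog values in ΔG cells were 7.32, 7.16 and 7.31 in heterozygous ES, 7.16, 7.05 and 6.96 in homozygous ES, 5.54, 5.26 and 4.91 in heterozygous RA and 5.88, 5.41 and 5.66 in homozygous RA samples. In ΔPG cells the values were 7.73, 7.79 and 7.75 in heterozygous ES, 7.57, 7.49 and 7.63 in homozygous ES, 6.12, 5.97 and 6.09 in heterozygous RA and 6.20, 6.12 and 6.01 in homozygous RA samples. All RA samples lay more than 1 rlog unit below all ES samples of the same table. Ccnd1 (chr7:152115836-152125774, minus strand, NCBIM37) fell by 2.02 (SE 0.13, adjusted p = 2.1e-08) in heterozygous and by 1.41 (SE 0.11, adjusted p = 8.8e-09) in homozygous ΔG cells on the log2 scale. In ΔPG cells the differences were -1.69 (SE 0.053, adjusted p = 1.8e-07) and -1.45 (SE 0.077, adjusted p = 3.3e-08), leaving 0.309 and 0.366 of the ES level on the linear scale. The order by mean ± SD (n = 3) was heterozygous ES (7.26 ± 0.087), homozygous ES (7.06 ± 0.10), homozygous RA (5.65 ± 0.24) and heterozygous RA (5.24 ± 0.31) in ΔG, and heterozygous ES (7.76 ± 0.029), homozygous ES (7.56 ± 0.067), homozygous RA (6.11 ± 0.097) and heterozygous RA (6.06 ± 0.079) in ΔPG.

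**Figure D2:**
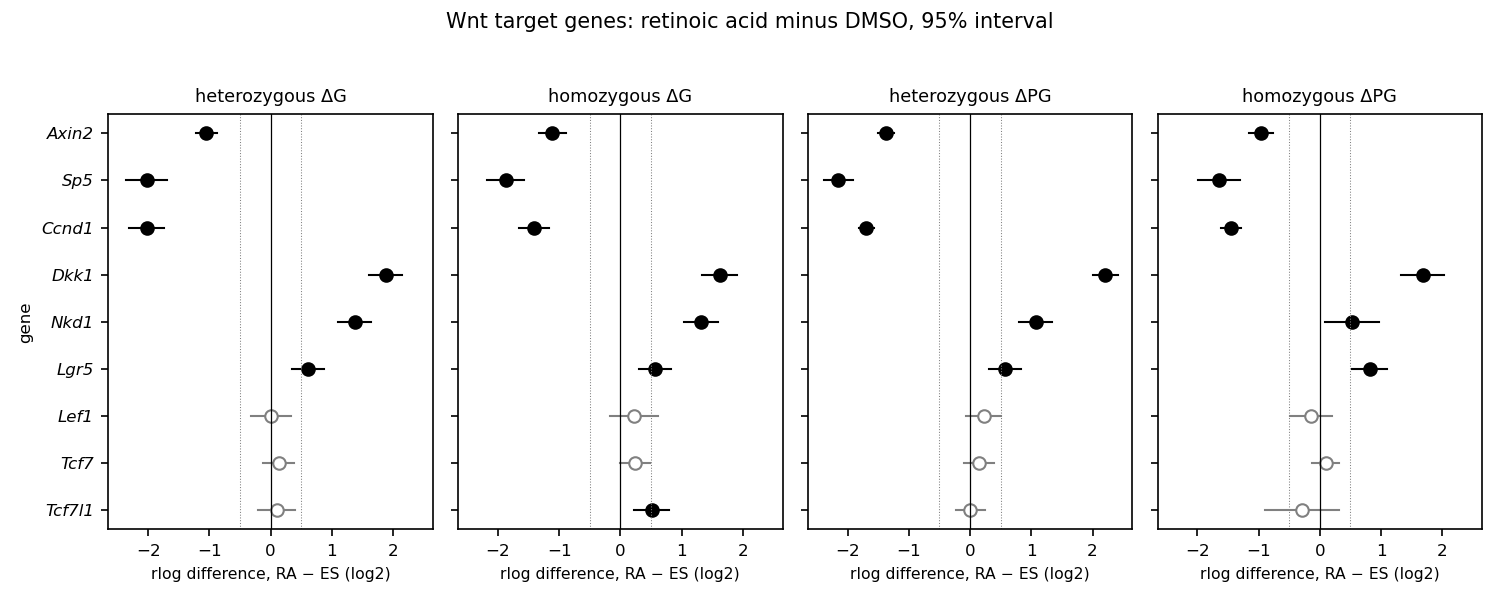
The 4 panels plot, for each gene, the RA minus ES difference of rlog values (log2) as a dot with its 95% interval, filled where called and open where not. Dotted lines mark differences of -0.5 and 0.5, and Sp5 sits at -2.02, -1.87, -2.15 and -1.64 from left to right.

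The other Wnt pathway genes were counted in lists by role, with retinoic acid comparisons given in the order heterozygous ΔG, homozygous ΔG, heterozygous ΔPG and homozygous ΔPG. The shares of all tested genes called higher (17.7%, 17%, 18% and 16.5%) and lower (11.7%, 12.1%, 13.6% and 11.3%) in these comparisons stand beside every list count that follows. Shares called were larger among genes with a mean rlog of at least 3, as given above. Of the Wnt ligands, 6 of 19, 11 of 19, 10 of 18 and 10 of 18 tested genes rose and 0, 0, 1 and 0 fell, with medians of 0.23, 0.54, 0.66 and 0.61; at an unadjusted p under 0.05 limma had 0, 1 and 0 ligands lower in the comparisons with none called. Wnt9a rose most among the ligands, by 1.48 (SE 0.16, adjusted p = 2.7e-06), 1.64 (SE 0.13, adjusted p = 5.3e-09), 1.98 (SE 0.16, adjusted p = 3.0e-05) and 2.1 (SE 0.16, adjusted p = 9.0e-07). Wnt3a, a ligand of the β-catenin branch, was the single ligand that fell, by 0.62 (SE 0.11, adjusted p = 0.00260) in heterozygous ΔPG cells. Both genes needed for ligand release, Porcn and Wls, rose in each comparison, by 1.28, 1.61, 0.66 and 1.04 for Porcn and by 2.00, 2.1, 2.29 and 1.97 for Wls. Of 20 receptors and agonists, 13, 14, 12 and 12 rose and 3, 3, 3 and 2 fell, with medians of 0.81, 1.03, 0.80 and 0.86. The receptor gene Fzd2 rose most, by 3.76 (SE 0.11, adjusted p = 6.9e-12), 3.70 (SE 0.093, adjusted p = 6.9e-16), 2.88 (SE 0.099, adjusted p = 3.0e-07) and 2.95 (SE 0.097, adjusted p = 6.9e-10). Fzd5 fell most in heterozygous cells, with differences of -3.61 (SE 0.10, adjusted p = 4.0e-12) in ΔG and -3.07 (SE 0.05, adjusted p = 8.8e-09) in ΔPG, and Fzd10 in homozygous cells, with -3.50 (SE 0.095, adjusted p = 2.0e-15) and -2.64 (SE 0.077, adjusted p = 2.7e-10).

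Transducers and nuclear partners were counted next. Of 13 transducers, 3, 3, 2 and 2 rose and 0, 0, 1 and 0 fell (limma gave 4, 4 and 2 lower at an unadjusted p under 0.05 where none was called), with medians of 0.18, 0.12, 0.091 and 0.13. Gsk3b, which encodes a kinase of the destruction complex, rose in each comparison, by 1.01, 0.83, 0.90 and 0.86. Dvl3 rose by 0.62, 0.56 and 0.82 in all but heterozygous ΔPG cells, Tnks by 0.50 and 0.51 in heterozygous ΔG and ΔPG cells and Dvl1 by 0.54 in homozygous ΔG cells, and Dvl2 fell in heterozygous ΔPG cells with a difference of -0.58. Of 11 nuclear partners, 5, 7, 5 and 5 rose and 1, 1, 0 and 1 fell, with medians of 0.43, 0.66, 0.40 and 0.41 (limma gave 4 lower at an unadjusted p under 0.05 where none was called). Bcl9l, a coactivator of β-catenin, rose most in heterozygous ΔG, homozygous ΔG and homozygous ΔPG cells (1.44, 1.74 and 1.56) and Pygo1 in heterozygous ΔPG cells (1.38). The corepressor gene Tle4 was the partner that fell, with -0.85, -0.71 and -0.70 in the first, second and last comparison.

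Inhibitors and further targets split in both directions, as the 9 genes did. Of 15 inhibitors tested, 7, 6, 7 and 7 rose and 3, 3, 2 and 3 fell, with medians of 0.28, 0.39, 0.36 and 0.47. Sfrp5, a secreted Wnt antagonist, rose most in each comparison, by 3.34, 3.56, 2.61 and 3.21. Another antagonist, Sfrp1, fell most in heterozygous ΔG, homozygous ΔG and homozygous ΔPG cells (-1.55, -1.94 and -1.49), and Notum in heterozygous ΔPG cells (-2.17). Of 11 further targets, 5 rose and 2 fell in each of the 4 comparisons, with medians of 0.18, 0.25, 0.25 and 0.057. Ccnd2, which encodes cyclin D2, rose most, by 4.30 (SE 0.098, adjusted p = 7.3e-13), 3.58 (SE 0.12, adjusted p = 4.6e-14), 3.18 (SE 0.093, adjusted p = 1.4e-07) and 3.26 (SE 0.13, adjusted p = 3.4e-09), in the comparisons in which Ccnd1 fell. Cdx1 fell most, with -3.46, -2.90, -3.55 and -2.61. Of the 210 calls of these pathway genes, none changed sign under quantile normalization or median scaling, which kept 174 and 196 of them. With quantile normalization the genes called higher numbered 3, 7, 9 and 7 for ligands, 3, 4, 5 and 3 for transducers, 4, 5, 3 and 4 for nuclear partners, 3, 4, 6 and 4 for inhibitors and 4, 4, 4 and 3 for further targets. These list counts thus depend on scaling. Receptors and agonists had 12, 14, 12 and 13. Amer1 is listed in the tables under its older symbol Fam123b, Dkk4 was at 0 in every sample and Wnt9b at 0 in every ΔPG sample.

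The next question was whether the targets depended on the deletion. The genotype comparisons of a table share their groups with its retinoic acid comparisons, so their values are given side by side and not as separate evidence. In ES samples of ΔG, limma called 0 of the 9 targets higher, against 0.354% of all tested genes, and 0 lower, against 0.63%, with 2 of 9 at an unadjusted p under 0.05. These 2 were Axin2, at -0.21 (SE 0.058, adjusted p = 0.131), and Ccnd1, at -0.20 (SE 0.076, adjusted p = 0.262). The share of all genes at that unadjusted limit is not given for any comparison, so counts at it are no result about the targets as a list. The other 7 differences lay between -0.22 for Lef1 and 0.12 for Sp5, and the median of the 9 was -0.092 against -0.0057 over all genes. Quantile normalization changed the ΔG split over all genes from 78 higher and 139 lower to 70 and 78. In ES samples of ΔPG, 0 were again called higher (6.87% of all genes) and 0 lower (6.29%), with 2 at an unadjusted p under 0.05. The 2 were Axin2 and Ccnd1, at -0.33 (SE 0.084, adjusted p = 0.0183) and -0.19 (SE 0.048, adjusted p = 0.0172), which passed the limit on p but were smaller than 0.5. Of all genes, 36.1% passed the limit on adjusted p alone in this comparison, so 2 of 9 is no result about the targets. In both tables the homozygous Axin2 values lay below the heterozygous values, and the level in homozygous ES samples was 0.867 of the heterozygous level in ΔG and 0.794 in ΔPG. The remaining ΔPG differences lay between -0.22 for Sp5 and 0.18 for Tcf7, with a median of the 9 of -0.048 against 0.0019 over all genes.

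The ES libraries of ΔPG also differed in base composition. Across 11904 genes, which are not independent replicates, the homozygous minus heterozygous difference in ES samples had a Pearson r of -0.705 with the exonic GC content of the gene, against 0.00567 over 11997 genes in ΔG. The deviation of each library from the table mean had an r with GC content of 0.333, 0.339 and 0.335 in the heterozygous and -0.263, -0.238 and -0.292 in the homozygous ΔPG ES samples. Exonic GC content was 62.0% for Sp5, higher than in 97.9% of genes, 59.0% for Tcf7l1, 56.4% for Axin2, 54.5% for Nkd1, 54.2% for Tcf7, 51.2% for Ccnd1, 47.5% for Lef1, 45.9% for Dkk1 and 44.0% for Lgr5. With the trend removed from each library, genes called in this comparison went from 1446 higher and 1338 lower to 539 and 344, in each case among the 11904 genes with a mean rlog of at least 3. In that setting the ΔPG difference of Axin2 in ES samples was 0.016 (adjusted p = 0.881) in place of -0.33 and that of Ccnd1 -0.069 (adjusted p = 0.376) in place of -0.19, and neither passed the limit on p. Sp5 went from -0.22 to 0.32 (adjusted p = 0.0306) and Tcf7l1 from -0.11 to 0.33 (adjusted p = 0.0758). Tcf7 went from 0.18 to 0.44 (adjusted p = 7.1e-04) and Nkd1 from 0.14 to 0.42 (adjusted p = 0.0328). In all 0 of the 7 targets with a value were called by limma, against 7.42% of all genes in that setting, with 4 at an adjusted p under 0.1. The share of all genes under that limit on p alone was not counted there. The 4 are therefore no result about the targets as a list.

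After retinoic acid, limma called 0 of the 9 targets higher in homozygous ΔG cells, against 0.676% of all genes, and 0 lower, against 1.46%, with 3 of 9 at an unadjusted p under 0.05. Ccnd1 came nearest, with RA values that overlapped between genotypes and a difference of 0.42 (SE 0.15, adjusted p = 0.0940). It passed both limits without replicate 1 of the heterozygous RA samples (0.57) or replicate 2 of the homozygous RA samples (0.54). It was 0.25 (adjusted p = 0.361) without replicate 3 of the heterozygous and 0.30 (adjusted p = 0.343) without replicate 1 of the homozygous RA samples. Tcf7l1 at 0.31 (SE 0.13, adjusted p = 0.164) and Axin2 at -0.27 (SE 0.11, adjusted p = 0.180) were the other 2, and the median of the 9 was -0.0085 against 0.0008 over all genes. In ΔPG cells after retinoic acid, 0 targets were called higher (0.241% of all genes) and 1 was called lower (0.605%), with 2 at an unadjusted p under 0.05.

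The called gene was Dkk1. Its RA values were 5.71, 5.69 and 5.80 in heterozygous and 5.17, 5.17 and 5.12 in homozygous ΔPG cells. The groups did not overlap, and both spread by less than their distance. The difference was -0.58 (SE 0.087, adjusted p = 0.00559), a ratio of 0.669 on the linear scale, and it was smaller than a fold change of 1.5, so that the stricter limits ended the call. In ΔG cells the RA values of Dkk1 were 5.29, 5.30 and 5.27 in heterozygous and 5.16, 4.94 and 5.18 in homozygous cells. These did not overlap either, and the difference was -0.19 (SE 0.12, adjusted p = 0.415). Beside the lower Dkk1, 2 of 5 endoderm markers were lower in homozygous ΔPG RA samples, Gata4 by 0.80 (SE 0.12, adjusted p = 0.00682) and Sox17 by 0.50 (SE 0.12, adjusted p = 0.0569), a call lost without any of 5 of the 6 samples (-0.58 to -0.38) and with the scalings or GC trend removal. The summed endoderm level was 313.9 to 340.6 in heterozygous and 226.1 to 244.4 in homozygous samples, with Gata6 the most abundant. Sums were also lower in homozygous samples for the trophectoderm list (1954 to 2112 against 2455 to 2516), the fibroblast list (482.4 to 508.1 against 545.5 to 563.5) and the neural list (679.9 to 699.5 against 714.1 to 746). They were higher for the ESC list (1679 to 1704 against 1613 to 1654) and the response list (1778 to 1827 against 1713 to 1739). A sum follows the most abundant genes of its list. By mean rlog, the trophectoderm, fibroblast, neural and ESC lists overlapped between genotypes. The endoderm list stayed lower and the response list higher by that measure. Col3a1 (1 of 5 fibroblast markers) and Klf4 (1 of 8 ESC markers) were lower too, with differences of -0.67 and -0.61, and Hoxb1 (1 of 5 response genes) was higher at 0.57. Their part in the Dkk1 difference was not tested. Of the other 8 targets in ΔPG RA samples, differences lay between -0.41 for Tcf7l1 and 0.29 for Sp5, and the median of the 9 was 0.05 against 0.0052 over all genes. Nkd1, at -0.40 (SE 0.17, adjusted p = 0.305), was the other target at an unadjusted p under 0.05. Without RA replicate 1, the library that stood apart, Tcf7l1 was at -0.062, Nkd1 at -0.22, Sp5 at 0.17, Tcf7 at 0.23 (0.12 with it) and Ccnd1 at 0.0041 (0.05 with it), none of them called either way.

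**Figure D3:**
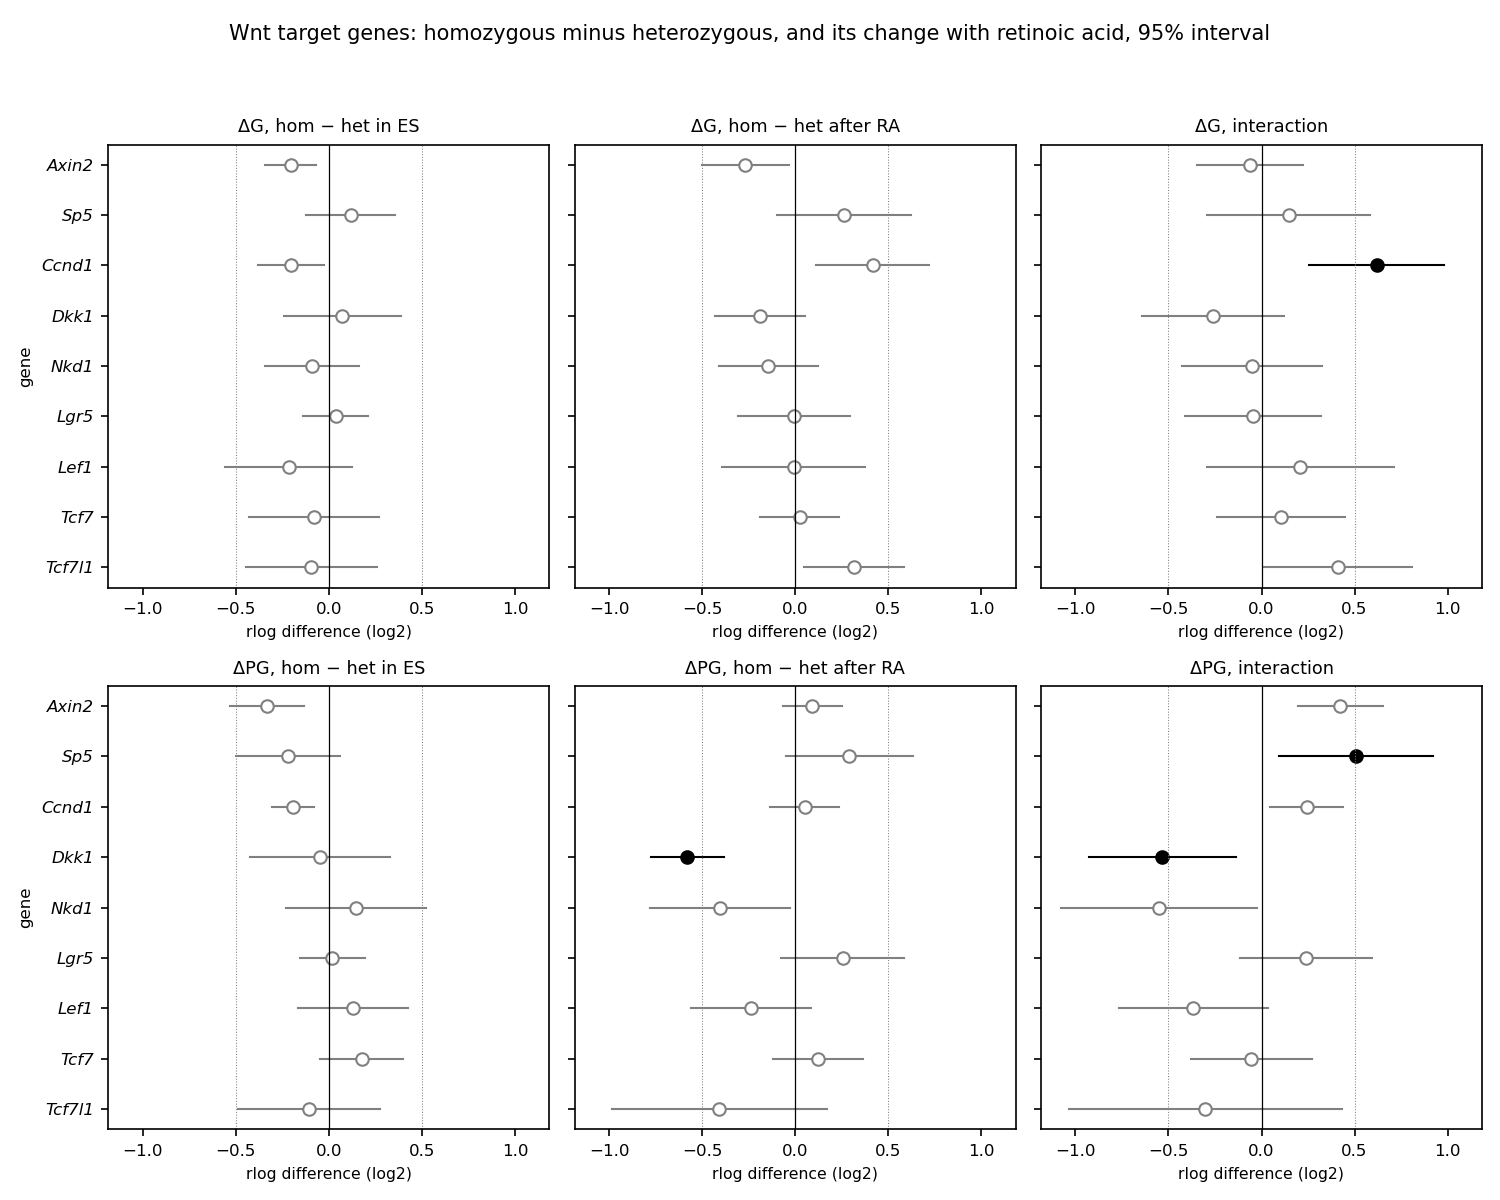
Panels plot, for each gene, the homozygous minus heterozygous difference of rlog values (log2) in ES and in RA samples and the interaction, with ΔG above and ΔPG below. Dots are estimates, lines are 95% intervals and filled dots are called genes, such as Dkk1 at -0.58 in ΔPG RA samples.

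Whether the retinoic acid response itself differed between genotypes was tested with an interaction term fitted to all 12 samples of each table, which is the homozygous minus the heterozygous response. In ΔG cells 1 target was called higher, against 1.19% of all tested genes, and 0 lower, against 1.18%, and limma gave 0 of the 9 lower at an unadjusted p under 0.05. The called gene was Ccnd1, whose fall was smaller in homozygous cells, -1.41 against -2.02, with an interaction of 0.62 (SE 0.18, adjusted p = 0.0475) and a 95% interval of 0.26 to 0.98. Heterozygous samples lay above homozygous samples in the mean in ES (7.26 ± 0.087 against 7.06 ± 0.10) and below them in RA (5.24 ± 0.31 against 5.65 ± 0.24). The RA values of Ccnd1 spread most in heterozygous cells, where replicate 3 was the lowest of all 12. The call was lost without replicate 1 of the heterozygous ES samples (0.59), replicate 3 of the homozygous ES samples (0.57), replicate 2 (0.63) or 3 (0.46) of the heterozygous RA samples, or replicate 1 (0.50) or 3 (0.61) of the homozygous RA samples, and without a variance trend, with limma adjusted p between 0.0182 and 0.176. In the same test Col1a2 (1 of 5 fibroblast markers) was lower at -1.22 and Krt7 (1 of 5 trophectoderm markers), Rarb (1 of 5 response genes) and Eomes were higher at 0.77, 0.63 and 0.60, with the Eomes call lost without any of 7 of the 12 samples (0.50 to 0.72). Summed levels in ΔG RA samples were 702.6 to 763.2 in heterozygous and 370.9 to 416.9 in homozygous cells for the fibroblast list, and 1939 to 2102 against 2435 to 2539 for the trophectoderm list. They were 579.3 to 602 against 670.4 to 688.3 for the neural list and 344.4 to 378.4 against 317.4 to 332.2 for the endoderm list. The neural sum is led by Nes, and the mean rlog of that list had the other order. That mean was 3.052 to 3.093 in heterozygous and 2.982 to 3.035 in homozygous RA samples, so the neural list had no single direction. Sums of the ESC, response and streak lists overlapped between genotypes. The part of these markers in the Ccnd1 result was not tested.

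In ΔPG cells 1 target was called higher in the interaction, against 6.72% of all genes, and 1 lower, against 7.19%, counts near those shares that are no result about the targets as a list. The gene called higher was Sp5, at 0.51 (SE 0.19, adjusted p = 0.0721), with retinoic acid differences of -2.15 in heterozygous and -1.64 in homozygous cells. The gene called lower was Dkk1, at -0.53 (SE 0.18, adjusted p = 0.050), with differences of 2.21 and 1.68. Axin2 at 0.42 (SE 0.11, adjusted p = 0.00859) and Ccnd1 at 0.24 (SE 0.091, adjusted p = 0.0718) passed the limit on p alone (with the GC trend removed they were at 0.078 (adjusted p = 0.673) and 0.13 (adjusted p = 0.434)), Nkd1 was at -0.55 (SE 0.24, adjusted p = 0.133) and Lef1 at -0.37 (SE 0.19, adjusted p = 0.196). The median of the 9 was -0.054 against 0.0056 over all genes, while in ΔG it was 0.10 against -0.01.

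The ΔPG interactions moved with base composition, since the interaction had a Pearson r of 0.695 with exonic GC content across 11904 genes, against 0.102 in ΔG. With the GC trend removed, Sp5, the target with the highest GC content, went to -0.033 (limma adjusted p = 0.923, range over alternatives 0.0321 to 0.923), so its direction turned. Its call was also lost with quantile normalization (0.46), at stricter limits, and without heterozygous ES replicate 2 (0.49) or 3 (0.46), homozygous ES replicate 1 (0.41) or 3 (0.49), heterozygous RA replicate 1 (0.52) or 2 (0.45), or homozygous RA replicate 1 (0.38). Dkk1 went to -0.35 with the trend removed (adjusted p = 0.200, range over alternatives 0.00264 to 0.200) and lost its call at stricter limits and without homozygous ES replicate 2 (-0.45) or 3 (-0.44) or heterozygous RA replicate 3 (-0.50), with the same sign throughout. Nkd1 passed both limits with the trend removed (-0.82), over genes with a mean rlog of at least 3, and without homozygous ES replicate 1 or RA replicate 2 (-0.68 in each), and it was -0.37 (adjusted p = 0.262) without homozygous RA replicate 1, the library that stood apart. Tcf7l1 passed with the trend removed (-0.74), and its sign turned without that library (0.044), as did that of Tcf7 (-0.054 with it and 0.056 without). Markers called in the ΔPG interaction were Gata4 (1 of 5 endoderm markers, -0.73 (SE 0.29, adjusted p = 0.0877)), Klf4 and Dppa5a (2 of 8 ESC markers, -0.61 and 0.50), Nes (1 of 4 neural markers, 0.56) and Col3a1 (1 of 5 fibroblast markers, -0.76). The Gata4 call was lost without any of 8 of the 12 samples (-0.94 to -0.47) and without a variance trend, and that of Dppa5a without any of 7 (0.48 to 0.55). With the GC trend removed 4 of 5 endoderm markers were called lower, Gata4 at -1.11, Gata6 at -0.81, Foxa2 at -0.62 and Sox17 at -0.53. Klf4 (-0.90), Col3a1 (-0.54) and Krt7 (-0.52) were called lower there too. Dppa5a (0.48) and Nes (0.26) were not called. The summed endoderm level of each group in RA samples is given above with Dkk1. The part of these markers in the interactions was not tested.

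Of the 91 list genes tested in ΔG, limma called 0 higher and 1 lower in ES samples (0.354% and 0.63% of all genes) and 4 higher and 1 lower in RA samples (0.676% and 1.46% of all genes). At an unadjusted p under 0.05, limma had 6 higher in ES samples. In ES samples of ΔG the inhibitor Kremen1 was the single list gene called, at -0.58 (SE 0.10, adjusted p = 0.0322), a call lost at the stricter limits. The receptor gene Fzd8, at -0.58 (limma adjusted p = 0.202), was not called. It passed both limits with the GC trend removed (-0.58, adjusted p = 0.0063). After retinoic acid the ligands Wnt4, Wnt6 and Wnt7b were higher in homozygous ΔG cells, at 0.57 (SE 0.16, adjusted p = 0.0330), 0.70 (SE 0.15, adjusted p = 0.00466) and 0.58 (SE 0.15, adjusted p = 0.0219). The calls of Wnt4 and Wnt7b were lost at the stricter limits and without 2 and 1 of the 6 samples (lowest values 0.45 and 0.49), that of Wnt4 also with quantile normalization. Among the further targets Cdx1 was higher, at 0.91 (SE 0.14, adjusted p = 1.9e-04), and Ccnd2 lower, at -0.78 (SE 0.085, adjusted p = 2.8e-06), where Ccnd1 was at 0.42. Markers called in the same samples were Col1a2 (1 of 5 fibroblast markers), lower at -1.41 (SE 0.063, adjusted p = 2.8e-12), and Krt7 (1 of 5 trophectoderm markers), higher at 0.77 (SE 0.12, adjusted p = 1.5e-04). Their part in these differences was not tested. In the ΔG interaction the lists had 8 genes of 91 higher and 1 lower, against 1.19% and 1.18% of all genes. The higher ones were Wnt6 (0.67), Wnt7b (0.63), Fzd4 (0.51), Lrp5 (0.52), Tle6 (0.89), Dkk3 (0.63), Cdx1 (0.56) and Tnfrsf19 (0.61). This is the sign that Ccnd1 had. The lower one was Ccnd2, at -0.72 (SE 0.16, adjusted p = 0.00726). The calls of Tle6, Tnfrsf19 and Ccnd2 held under the stricter limits, the scalings, GC trend removal and leaving out any sample. Each of the other 6 was lost without at least 1 of the 12 samples.

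In ES samples of ΔPG, 2 of 90 list genes were called higher and 7 lower, against 6.87% and 6.29% of all genes, which is no result about the pathway. Fzd3 and Csnk1a1 were higher (0.63 and 0.59), and Wnt5b, Fzd9, Axin1, Dvl1, Bcl9l, Notum and Cdx1 were lower, with differences from -0.51 for Dvl1 to -0.77 for Notum. All 9 of these calls were lost with the GC trend removed, where the values lay between -0.31 for Notum and 0.31 for Fzd3. In that setting T, a further target, passed both limits at 0.53 in place of 0.33. The markers Pou5f1 and Nes were lower in the same samples (-0.52 and -0.65) and were at -0.23 and -0.34 with the trend removed, not called. After retinoic acid 0 of 90 were called higher in homozygous ΔPG cells (0.241% of all genes, and 9 of 90 by limma at an unadjusted p under 0.05) and 3 lower (0.605%). These were Wnt5a, Fzd1 and the inhibitor Dkk2, at -0.58 (SE 0.14, adjusted p = 0.0724), -0.51 (SE 0.11, adjusted p = 0.0409) and -0.53 (SE 0.13, adjusted p = 0.0682). The calls of Wnt5a and Dkk2 were lost without any 1 of the 6 samples and that of Fzd1 without any of 5 of them, with values of -0.66 to -0.51, -0.56 to -0.50 and -0.60 to -0.38. In the ΔPG interaction 8 of 90 list genes were higher and 4 lower, against 6.72% and 7.19% of all genes, which is near those shares and no result about the pathway. The higher ones were Fzd5 (0.52), Fzd9 (0.68), Lrp5 (0.50), Bcl9l (0.75), Sfrp5 (0.61), Notum (1.16), Kremen2 (0.62) and Cdx1 (0.94). The 4 lower ones were Wnt5a (-0.67), Fzd3 (-0.71), Csnk1a1 (-0.60) and Dkk2 (-0.55). Of the 9 with a value after GC trend removal, Notum alone stayed called (0.70), and Fzd1 passed both limits there (-0.73 in place of -0.40). Wnt5a, Dkk2 and Kremen2 had too low a level for that setting.

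The genes whose patterns were most like those of the targets were sought for the 5 targets that ranged over at least 1 rlog unit in both tables, by the lower of the Pearson r over the 12 samples of each table, among 3554 genes. Both ES and RA samples enter this r, its part from the split between them was not separated, and it is given as a description with no p. For Axin2 the nearest were Ppip5k1 (r = 0.992 in ΔG and 0.986 in ΔPG), Igf2r (0.986 and 0.987) and Hist1h1c (0.987 and 0.985). Sp5 was most like Fzd5 (0.987 and 0.987), Gcat (0.985 and 0.992) and Mcm5 (0.985 and 0.987). Dkk1 was most like Foxq1 (0.991 and 0.992), Cubn (0.990 and 0.991) and Cdk14 (0.989 and 0.992). For Nkd1 the nearest were Cpne2 (0.981 and 0.966), Pcdh7 (0.975 and 0.965) and Fam168a (0.967 and 0.963), and for Ccnd1 they were Atp2a3 (0.982 and 0.983), Triml2 (0.982 and 0.982) and Mcm5 (0.979 and 0.993).

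The position of the targets was set against circular chromosome conformation capture (4C), which had been run with a bait near the 5430416N02Rik promoter and gave 339 and 341 contact regions in its 2 replicates. Ccnd1, Lgr5, Nkd1, Sp5 and Tcf7l1, 5 of the 9 targets, overlapped a region of both replicates, against 38.4% of 21883 protein-coding genes. The whole gene lay inside such regions for 4 of the 9 (all of these but Tcf7l1), against 37.3% of genes. Dkk1 overlapped a region of replicate 1 alone and Tcf7 of replicate 2 alone, so 7 of 9 lay in a region of either replicate, against 68.0% of genes. Axin2 and Lef1 lay in none. With regions this broad, shares near those of all genes are no result about the targets. The 4C samples carry no label of a deletion line. The study did compare contacts of heterozygous and homozygous ΔG cells by another assay, Capture-C, from a bait close by, and those samples were not analysed here.

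Promoter windows of 300 bases, from 250 before to 50 after a start listed for the gene, were found in the RefSeq table (GRCm38.p6) for 7 of the 9 targets, and Ccnd1 and Lgr5 had no entry. A listed start need not be the outermost start of the gene. They were searched on both strands for letters that TCF/LEF proteins are known to favour, namely CTTTGAA or its variant CTTTGAT as well as CTTTGTA or its variant CTTTGTT. Of the 7 targets 3 held a match (Sp5, Dkk1 and Lef1, the last in 1 of its windows), against 18.9% of 27025 genes and 16.9% of 32851 windows. Sp5 and Dkk1 are printed because they held 2 matches each and, of the targets with a window, had the largest called fall and rise with retinoic acid, and Axin2 because it fell with Sp5 and held none in its window. That Axin2 window lies inside the gene body (chr11:108917828-108950783, GRCm38.p6), so the region at the outer gene start was not searched. The Nkd1 window and the Lef1 window with the match also lie inside their gene bodies. Capitals mark the matches: in Sp5, CTTTGTT on the opposite strand 222 bases and CTTTGAT on the strand of the gene 104 bases before the start, and in Dkk1, CTTTGAA 117 bases and CTTTGTT 98 bases before the start on the strand of the gene. The windows are chr2:70474673-70474972 (plus strand) for Sp5, chr19:30549447-30549746 (minus strand) for Dkk1 and chr11:108920099-108920398 (plus strand) for Axin2, and each is written 5′ to 3′ on the strand of its gene. A match is a run of letters and was not tested as a binding site.
Sp5: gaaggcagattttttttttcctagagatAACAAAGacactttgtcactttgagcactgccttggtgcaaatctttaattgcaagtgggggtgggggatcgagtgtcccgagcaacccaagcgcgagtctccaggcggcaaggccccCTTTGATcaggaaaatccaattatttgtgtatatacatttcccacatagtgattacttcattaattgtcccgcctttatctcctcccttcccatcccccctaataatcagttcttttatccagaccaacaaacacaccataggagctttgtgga
Dkk1: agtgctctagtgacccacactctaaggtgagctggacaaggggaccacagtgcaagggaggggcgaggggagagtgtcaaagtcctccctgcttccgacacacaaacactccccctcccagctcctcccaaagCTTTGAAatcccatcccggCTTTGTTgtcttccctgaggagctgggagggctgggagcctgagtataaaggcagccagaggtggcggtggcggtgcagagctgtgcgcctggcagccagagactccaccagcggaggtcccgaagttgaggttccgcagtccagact
Axin2: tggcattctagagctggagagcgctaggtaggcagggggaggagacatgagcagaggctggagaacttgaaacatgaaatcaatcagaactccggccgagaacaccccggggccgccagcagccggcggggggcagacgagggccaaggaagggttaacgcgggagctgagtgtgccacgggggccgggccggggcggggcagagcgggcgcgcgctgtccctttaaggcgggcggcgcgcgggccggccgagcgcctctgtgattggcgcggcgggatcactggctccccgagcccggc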

How the data were processed

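RNA-seq libraries (TruSeq Stranded Total RNA with Ribo-Zero) of 24 samples were used, 3 per group. Per the study's methods the authors aligned paired-end reads to NCBI37/mm9 with TopHat2 2.1.0, handled duplicates with Picard, counted GENCODE genes with HTSeq 0.6.0 and made rlog values with DESeq2 1.14.1. The deposited values are on a log2 scale, 1 table for the 12 ΔG and 1 for the 12 ΔPG samples, each normalized on its own, and depth per sample was not known. Deposited 4C regions (unit other: positions, aligned by the authors with BWA 0.7.15) were used as intervals.

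Genes whose value varied (22048 of 33924 in ΔG and 21979 in ΔPG) were fitted in R 4.3.3 with limma 3.58.1 (lmFit, eBayes with a variance trend) on the 6 samples of a comparison, or on 12 for an interaction, with Benjamini-Hochberg adjustment. A call needed 2 things, a log2 difference larger than 0.5 in size and an adjusted p under 0.1. The fits were tested on simulated data, whose outcome is not reported here, and no result rests on it. Python 3.11.15 with numpy 2.4.6, pandas 2.3.3 and matplotlib 3.10.9 read annotation, sequences and figures. All 9 targets are named. From each further list, the strongest called riser and faller of every retinoic acid comparison are named, and every called gene where a list had 3 or fewer. The targets and lists were chosen with earlier results of these data known. Of the marker genes, 1 of the retinoic acid response list is not reported here, and its list was counted and summed without it. Alternatives were a joint fit of 12 samples, stricter and looser limits, no variance trend, a mean rlog of at least 3, quantile normalization, median scaling, GC trend removal, a replicate block and leaving out each sample. RIP-seq and Capture-C samples were not analysed here.

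The study's methods place 4C positions on mm9, yet 28 of 680 region starts lay within 8 bp of a HindIII site of NCBIM37 as deposited, 9 regions ended past a chromosome, and 506 of 668 starts met a HindIII site once moved by the offset of nearby genes to GRCm38. GRCm38 gene positions were therefore used for the overlap, and no 4C coordinate is printed.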

Additional observations from a re-analysis of the deposited data

Results flagged for a closer look

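The retinoic acid response of 3 targets differed between genotypes by the interaction test, 1 of 9 higher in ΔG against 1.19% of all genes, and in ΔPG 1 of 9 higher against 6.72% and 1 of 9 lower against 7.19%. The ΔPG counts are near those shares. In ΔG cells Ccnd1 fell less in homozygous than in heterozygous cells, with an interaction of 0.62 on the log2 scale (SE 0.18, limma adjusted p = 0.0475), a call lost under 7 of 20 alternatives, which were no variance trend and leaving out any of 6 of the 12 samples (adjusted p up to 0.176). In the same test Col1a2, a fibroblast marker, was at -1.22 and Krt7, a trophectoderm marker, at 0.77, and their part was not tested. In ΔPG cells Sp5 fell less in homozygous cells, with an interaction of 0.51 (SE 0.19, adjusted p = 0.0721), and Dkk1 rose less, with an interaction of -0.53 (SE 0.18, adjusted p = 0.050). The values of Sp5 and Dkk1 after removal of the GC trend were -0.033 and -0.35, not called. The 2 calls were also lost without any of 7 and any of 3 of the 12 samples.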

How the results depend on the processing

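Of the 26 retinoic acid differences of single targets that were called under any setting (calls by p alone left aside), 20 kept their direction and their side of the threshold under all alternatives: Axin2, Sp5, Ccnd1 and Dkk1 in all 4 comparisons, Nkd1 in 3, and Lgr5 in homozygous ΔPG cells. Over all comparisons and the interactions, for targets so called, 455 alternative values kept direction and side, 44 fell below the threshold, 9 passed it and 2 turned direction. The 2 were ΔPG interactions: Sp5 at -0.033 with the GC trend removed (main 0.51), and Tcf7l1 at 0.044 without replicate 1 of the homozygous RA samples (main -0.30, leaving out single samples -0.55 to 0.044). The cause was not tested. Targets not called under any setting had the other sign in 47 alternatives, among them Axin2 in ES samples of ΔPG with the GC trend removed. Lef1 and Lgr5 have mean rlog values under 3 and got no value with the GC trend removed or with that minimum.

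Counts of called targets, both directions together, moved by over 1.5 times in genotype comparisons and interactions and not in retinoic acid comparisons. By direction, targets called higher in homozygous ΔG cells went from 4 to 2 with quantile normalization, median scaling or the GC trend removed. In homozygous ΔPG cells they went from 3 to 2 with quantile normalization or median scaling and to 1 with the GC trend removed, and in heterozygous ΔG and ΔPG cells from 3 to 2 with quantile normalization. With the GC trend removed Lgr5, which has no value there, is 1 of the calls missing in each homozygous comparison and the only one missing in the heterozygous comparisons. With an adjusted p under 0.1 alone, 2 were called in ES samples of ΔPG (main 0), 1 in RA samples of ΔG (main 0) and 4 in the ΔPG interaction (main 2), against 36.1%, 11% and 29.1% of all genes. At a fold change over 1.5 with an adjusted p under 0.05, 0 were called in RA samples of ΔPG (main 1) and 0 in the ΔPG interaction. Without a variance trend 0 were called in the ΔG interaction (main 1), and with quantile normalization 1 in the ΔPG interaction. Leaving out single samples gave 0 to 1 in RA samples of ΔG, 0 to 1 in the ΔG interaction and 0 to 3 in the ΔPG interaction. The cause was not tested.

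With a replicate block 1 target was called in the ΔPG interaction (main 2), Sp5 losing its call (adjusted p = 0.106), and no other target changed side. Of the genes on the other lists called in a genotype comparison, Kremen1 in ES samples of ΔG and Wnt5a, Fzd1, Dkk2 and Sox17 in RA samples of ΔPG lost their calls with the block. The numbers were not shown to pair samples: correlations of same-numbered samples lay between -0.0255 and 0.0855 over the 8 comparisons, and at most 2 of 3 samples were closest to their own number. Depth was unknown, so the limit it sets on the low genes Lgr5 and Lef1 could not be given.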
